A study of Mus musculus with 6 samples.

Results

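The genes described here are 10 mouse genes that mark or build the dopamine neurons of the midbrain. They are Slc6a3, Slc18a2, Th, Ddc, Nr4a2, Pitx3, En1, Foxa1, Aldh1a1 and Lmx1b. Each was found as 1 row of a table of 56748 genes, by matching its symbol to the Ensembl identifier of the row. The genes were chosen on a result of these libraries, the difference in log2 normalized count between the 2 times, as well as on their known role. Their values at the 2 times are therefore a description and carry no test.

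The libraries were made from brain of mice that had been implanted with MCF10DCIS CD63-NLuc cells, in a model the series title calls intraductal. MCF10DCIS is a human breast line that grows into lesions resembling ductal carcinoma in situ, and the cells carried the vesicle protein CD63 fused to the light-producing enzyme NanoLuc. One group was taken at day 3 after implantation (n = 3 libraries) and the other at day 28 (n = 3 libraries), so both groups carried the same cells and differed in time. The labels name the tissue only as brain and give no strain, sex or age, no part of the brain and no statement that libraries came from separate mice; libraries of mice without implanted cells were not analysed here.

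Midbrain dopamine neurons lie in the substantia nigra and the ventral tegmental area and send their axons mainly to the striatum and the frontal cortex. Tyrosine hydroxylase (Th) turns tyrosine into L-DOPA, aromatic amino acid decarboxylase (Ddc) turns L-DOPA into dopamine, the vesicular monoamine transporter (Slc18a2) loads it into vesicles, and the dopamine transporter (Slc6a3) takes it back up from outside the cell. The transcription factors Nr4a2, Pitx3, En1, Foxa1 and Lmx1b build and maintain these cells. Several members serve other cells too: Th and Ddc are also made in other catecholamine neurons, including Th in dopamine interneurons of the olfactory bulb, Slc18a2 and Ddc are shared with serotonin and histamine neurons, and Lmx1b is needed for serotonin neurons.

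The stretches of 250 bases before the transcription start are given for 5 members. Of these, 4 were lower in every day 28 library than in any of day 3, and Th was not. Foxa1 and Aldh1a1 were lower in the same way and are not printed. The stretches come from RefSeq on build GRCm38.p6, an older build than the one the data were made on, and all 10 members matched that table. Slc6a3 lies at chr13:73536497-73536746, plus strand, Slc18a2 at chr19:59260628-59260877, plus strand, En1 at chr1:120602237-120602486, plus strand, Ddc at chr11:11898145-11898394, minus strand (the first of its 2 listed starts) and Th at chr7:142899996-142900245, minus strand. Each is printed 5′ to 3′ along its gene, and capitals mark matches to the motifs searched.
Slc6a3: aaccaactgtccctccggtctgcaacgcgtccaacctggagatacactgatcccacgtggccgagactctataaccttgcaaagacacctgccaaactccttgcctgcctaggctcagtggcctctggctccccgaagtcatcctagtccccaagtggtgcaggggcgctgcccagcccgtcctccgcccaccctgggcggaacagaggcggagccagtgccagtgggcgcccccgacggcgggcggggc
Slc18a2: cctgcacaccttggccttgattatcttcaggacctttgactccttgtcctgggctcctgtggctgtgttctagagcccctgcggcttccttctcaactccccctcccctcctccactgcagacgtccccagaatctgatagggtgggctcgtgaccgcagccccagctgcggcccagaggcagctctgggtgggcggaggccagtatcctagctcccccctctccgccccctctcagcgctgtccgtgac
En1: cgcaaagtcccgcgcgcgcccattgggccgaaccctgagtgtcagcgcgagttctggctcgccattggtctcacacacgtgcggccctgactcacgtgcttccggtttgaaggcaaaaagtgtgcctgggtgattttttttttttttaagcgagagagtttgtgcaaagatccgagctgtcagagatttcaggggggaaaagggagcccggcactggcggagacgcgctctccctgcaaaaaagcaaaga
Ddc: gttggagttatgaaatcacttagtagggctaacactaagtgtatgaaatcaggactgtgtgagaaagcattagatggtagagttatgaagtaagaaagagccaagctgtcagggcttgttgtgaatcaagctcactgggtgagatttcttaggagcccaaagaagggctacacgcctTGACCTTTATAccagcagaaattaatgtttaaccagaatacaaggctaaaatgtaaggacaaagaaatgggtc
Th: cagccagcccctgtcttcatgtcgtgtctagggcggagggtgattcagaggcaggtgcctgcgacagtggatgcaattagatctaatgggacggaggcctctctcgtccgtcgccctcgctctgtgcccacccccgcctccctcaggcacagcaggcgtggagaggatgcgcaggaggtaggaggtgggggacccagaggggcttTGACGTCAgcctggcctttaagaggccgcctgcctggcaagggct

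All motifs were searched on both strands. AAGGTCA is the core of the element that Nr4a2 and related nuclear receptors bind. Of the homeodomain factors, the core of the Pitx family was searched as TAATCC. The core that many other homeodomain factors share was searched as TAATTA. Forkhead factors such as Foxa1 were represented by TGTTTAC and, as a second form of the same core, by TGTTTGC. The TATA box was searched as TATAAA. The core of the cAMP response element, TGACGTC, was added after the sequences had been read. The stretches of Slc6a3, Slc18a2 and En1 held none of these letters. The stretch of Th held TGACGTC on both strands, as the overlapping reading of 1 palindrome that begins 45 bases before the start, and 2.78% of the 32851 promoters in the table held TGACGTC. The printed stretch of Ddc held AAGGTCA on the opposite strand 73 bases before the start. This match overlapped TATAAA on the opposite strand at 68 bases. Of all promoters, 4.08% held AAGGTCA and 12.4% held TATAAA. The stretch before the second listed start of Ddc held none of the letters searched, and which start was used in these libraries was not tested. Of the members not printed, Nr4a2 held TATAAA and Foxa1 held TGTTTAC, both on the opposite strand, and 3.17% of promoters held TGTTTAC. The stretch of Nr4a2 held 44 CG pairs and that of Slc6a3 16, against a median of 6 over all promoters, while the printed stretch of Ddc held 1.

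Slc6a3 was present in every day 3 library and almost absent at day 28. Its normalized counts, which are reads divided by the authors' size factor of the library, were 183, 188 and 190 in the early libraries. The late libraries held 3.99, 1.79 and 2.84, from 4, 2 and 3 reads. The groups lay far apart. The day 3 spread was 1.85% of the mean, against 7.46% from counting error alone at this depth. A spread from 3 libraries is itself imprecise, so nothing is concluded from its small size. The mean of day 3 was 65.1-fold that of day 28, a difference of -5.64 (SE 0.40) in log2(normalized count + 1). The 9 reads of day 28 gave a pooled 2.83 normalized counts with an exact 95% Poisson interval of 1.30 to 5.38, which covers counting error only.

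Slc18a2 was also lower in every day 28 library, but reads of it remained. It had 148, 162 and 119 normalized counts at day 3. The day 28 libraries held 35.9, 26.8 and 30.3. The groups did not overlap, and the day 3 mean was 4.62-fold the day 28 mean (log2 difference -2.17, SE 0.26). Inside a library, a ratio of 2 genes' reads is free of the scaling. There were 0.628 to 0.863 reads of Slc18a2 per read of Slc6a3 at day 3 and 9, 15 and 10.7 at day 28, so the loss of the dopamine transporter was larger in each library than that of the vesicular one.

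The enzymes of dopamine synthesis parted ways. Th had 161, 165 and 190 normalized counts at day 3. At day 28 it had 417 in replicate 1, 141 in replicate 2 and 79.6 in replicate 3. The day 28 libraries lay on both sides of the day 3 libraries, with 1 above and 2 below all of them, and the log2 difference of the means was -0.03 (SE 0.50).

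Ddc had 215, 247 and 184 normalized counts at day 3. The day 28 libraries held 43.9, 106 and 67.3, lowest in replicate 1, where Th was highest. The groups of Ddc did not overlap, and the day 3 mean was 2.97-fold the day 28 mean (log2 difference -1.64, SE 0.31). Per read of Th there were 1.34, 1.50 and 0.968 reads of Ddc early and 0.105, 0.753 and 0.845 late.

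Aldh1a1 makes an aldehyde dehydrogenase that marks a ventral subset of nigral dopamine neurons and is also made in liver and other tissues. It had 904, 1277 and 532 normalized counts at day 3. At day 28 it had 226, 266 and 379. The groups did not overlap, although day 3 replicate 3 was nearer to day 28 replicate 3 than to day 3 replicate 2, and the log2 difference was -1.58 (SE 0.31).

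The highest Aldh1a1 value was in day 3 replicate 2, a library rich in liver transcripts. Alb, the albumin of liver and plasma, had 67650 normalized counts there against 21.1 to 1139 in the other libraries, and the summed level of 10 liver genes was 99089 against 33.9 to 1901. Aldh1a7, a close relative of Aldh1a1 with which reads could be shared, had 292 normalized counts in that library and 8.93 to 45.0 elsewhere. Without day 3 replicate 2 the log2 difference of Aldh1a1 was -1.29, and without day 3 replicate 3 it was -1.92. The part of liver RNA in the Aldh1a1 values was not tested.

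**Figure D1:**
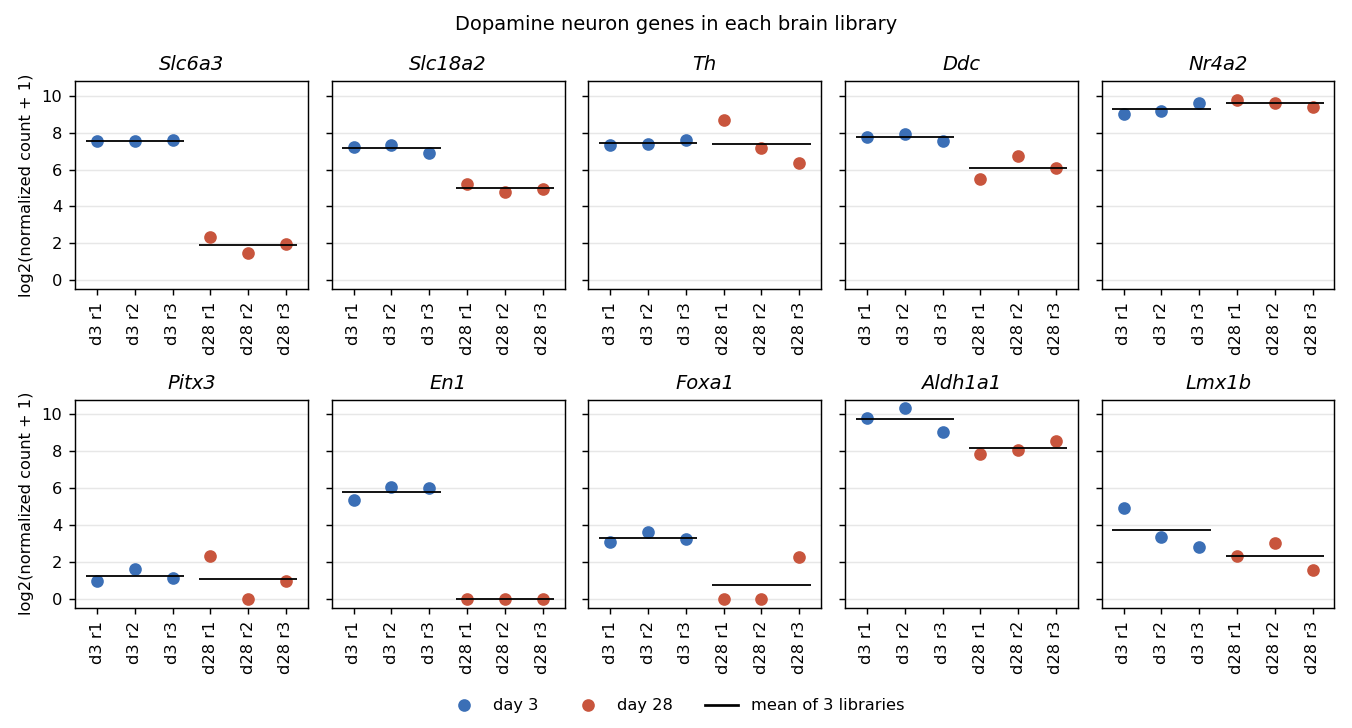
Level of each of the 10 genes in every library, as log2(normalized count + 1), with day 3 in blue, day 28 in red and a line at the mean of 3 libraries. Slc6a3, Slc18a2, Ddc, En1, Foxa1 and Aldh1a1 have groups that do not overlap, while Th spreads from 6.33 to 8.71 at day 28 around its day 3 level.

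En1, a homeobox factor of midbrain and hindbrain that adult dopamine neurons keep making, went from clear presence to no reads. It had 40.3, 64.8 and 62.1 normalized counts at day 3, from 44, 63 and 51 reads. It had 0 reads in all 3 day 28 libraries. Against a floor of 3 reads over the day 28 group, or 0.944 normalized counts, it was at least 59.0-fold lower, a bound that covers counting error only.

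Foxa1, a forkhead factor of the floor plate from which dopamine neurons arise, was low throughout. It gave 8, 11 and 7 reads in the day 3 libraries and 0, 0 and 4 in those of day 28, so its groups did not overlap but the mean of 9.05 ± 2.04 normalized counts at day 3 rests on few reads. Lmx1b, a LIM homeobox factor of dopamine and serotonin neurons, had 29.3, 9.25 and 6.09 normalized counts at day 3. At day 28 it had 3.99, 7.14 and 1.90, so the groups overlapped and the highest value was that of day 3 replicate 1 alone. Without that library the log2 difference of Lmx1b was -0.80, against -1.41 with all libraries.

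Pitx3, a homeobox factor that in the brain is largely restricted to midbrain dopamine neurons, was close to absent at both times. The day 3 libraries gave 1, 2 and 1 reads of Pitx3 and the day 28 libraries gave 4, 0 and 1. Summed over a group, the exact 95% Poisson intervals were 0.378 to 3.55 normalized counts at day 3 and 0.511 to 3.67 at day 28, so no difference was detectable at this depth. A defining transcription factor of these neurons was thus at the edge of detection even in the libraries with 183 to 190 normalized counts of Slc6a3.

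Nr4a2, an orphan nuclear receptor that dopamine neurons need and that cortical neurons and activated neurons also make, did not follow Slc6a3. It had 525, 582 and 787 normalized counts at day 3. The day 28 libraries held 870, 771 and 674. The groups overlapped, and the log2 difference was 0.30 (SE 0.17), the only one above 0 among the members tested.

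Ordered by normalized count per kilobase of exon, the members had another order at day 28 than at day 3. At day 3 the order was Aldh1a1 (183 ± 75.5 per kilobase, SD, n = 3), Nr4a2 (156 ± 34.0), Th (72.7 ± 6.63), Slc6a3 (54.1 ± 1.00), Ddc (48.3 ± 7.06), Slc18a2 (27.4 ± 4.22), En1 (21.2 ± 5.11), Lmx1b, Foxa1 and Pitx3. The ranges of neighbours overlapped for Aldh1a1 and Nr4a2, for Slc6a3 and Ddc, for Slc18a2 and En1 and for Lmx1b and Foxa1. Th and Slc6a3 did not overlap, nor did Ddc and Slc18a2.

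At day 28 Nr4a2 came first with 190 ± 24.1 per kilobase, followed by Th (90.0 ± 76.1), Aldh1a1 (58.8 ± 16.1), Ddc (16.3 ± 7.06) and Slc18a2 (5.94 ± 0.883). Slc6a3, the fourth at day 3, was the eighth at 0.832 ± 0.319 per kilobase, in a run from Pitx3 to Foxa1 whose neighbours all overlapped. En1 was last. Nr4a2 and Th overlapped, as did Th and Aldh1a1, while Aldh1a1, Ddc and Slc18a2 lay apart.

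**Figure D2:**
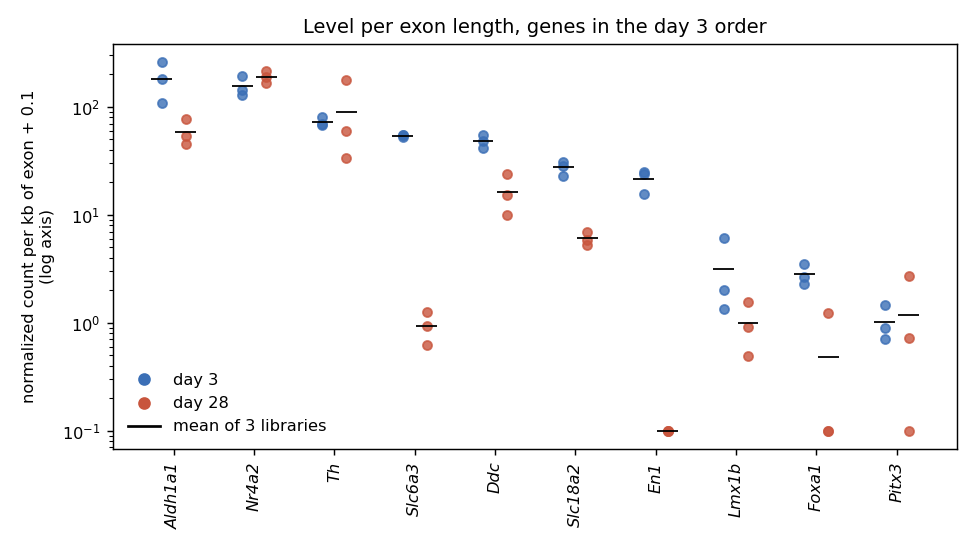
Normalized count per kilobase of exon for each gene in the 3 day 3 libraries (blue) and the 3 day 28 libraries (red), with 0.1 added for the log axis and a line at the mean. Genes are in the day 3 order, and Slc6a3 and En1 drop from the middle of that order to its lower end.

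Across the whole table, 16162 genes with a mean of at least 10 normalized counts were tested with limma, adjusted by the Benjamini-Hochberg method. Of the members, 7 passed this filter and Pitx3, Foxa1 and Lmx1b did not. Slc6a3 and En1 passed through their day 3 values alone, with day 28 means of 2.87 and 0. Slc6a3, Slc18a2 and En1, 3 of the 7, were called lower at an adjusted p of 0.05, against 0.124% of all tested genes. Groups did not overlap, with lower values at day 28, for 5 of the 7, against 9.21% of all tested genes. Their median log2 difference was -1.64, against -0.01 over all tested genes. These counts follow from how the genes were chosen and support nothing.

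The calls depended on the libraries and the fit, while Slc6a3 was lower at day 28 in every run. Leaving out any 1 library left Slc6a3 as the only member called, except that without day 3 replicate 3 there were 5, with Ddc and Aldh1a1 added. With voom on reads, 0 members were called (5 at an unadjusted p under 0.05, as in the limma fit). The log2 difference of Slc6a3 ran from -5.84 to -5.42 over the fits that left out 1 library. It was -5.88 with voom and -4.62 when 5 rather than 1 was added to the normalized counts, so its size depends on the number added.

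Genes that supply or clear dopamine in many cell types showed no calls. Of 10 genes for the tetrahydrobiopterin cofactor of Th and for dopamine breakdown, all were tested, 0 passed (2 at an unadjusted p under 0.05) and the median log2 difference was -0.27. Gch1, the first enzyme of cofactor synthesis, had 48.5, 117 and 15.8 normalized counts at day 3. At day 28 it had 22.0, 8.04 and 14.2 (limma adjusted p = 0.363), so that day 3 replicate 3 lay among the day 28 libraries. Gchfr, its feedback regulator, had 24.7, 65.8 and 4.87 at day 3 and 0.998, 0 and 3.79 later (limma adjusted p = 0.243). Both were highest in day 3 replicate 2, the library rich in liver transcripts, and the part of liver RNA was not tested. Gchfr passed the filter through its day 3 values alone (day 28 mean 1.60), which favours lower values at day 28. Maoa, a monoamine oxidase, had a log2 difference of -0.22 with groups that did not overlap (limma adjusted p = 0.44).

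Other factors of midbrain dopamine neurons were uneven between libraries. Of 9, 6 were tested, 0 passed (2 at an unadjusted p under 0.05) and their median log2 difference was 0.09. Foxa2, the partner of Foxa1 and also a liver factor, was too low to test. Day 3 replicates 1 to 3 held 0.916, 20.6 and 11.0 normalized counts of it, and no day 28 library held a read. Lmx1a, the relative of Lmx1b, had 19.2, 15.4 and 4.87 at day 3 and 0.998, 6.25 and 2.84 at day 28. En2, the relative of En1 that the cerebellum also makes, had 665 and 556 in day 3 replicates 1 and 2 but 37.7 in replicate 3, and 20.0, 19.6 and 98.6 at day 28 (limma adjusted p = 0.295). En1 did not share that split of the day 3 libraries.

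Genes enriched in midbrain dopamine neurons but shared with other neurons were mixed. Of 16, 14 were tested and 0 passed, with 6 at an unadjusted p under 0.05, a median log2 difference of -0.21 and groups that did not overlap for 5 lower and 1 higher, against 9.21% and 9.71% of all tested genes. Sncg, gamma-synuclein, had 300, 268 and 148 normalized counts at day 3 and 61.9, 84.8 and 56.9 at day 28 (limma adjusted p = 0.0679). Ret, the receptor for GDNF-family factors, had 571, 569 and 308 at day 3 and 87.9, 189 and 238 at day 28 (limma adjusted p = 0.138). Chrna6, a nicotinic receptor subunit of dopamine neurons, had 40.3, 36.0 and 25.6 at day 3 and 0, 0.893 and 13.3 at day 28 (limma adjusted p = 0.184). Day 28 replicate 3 thus held most of the reads of Chrna6 at that time, although its Slc6a3 was as low as in the other day 28 libraries. Chrna6 passed the filter through its day 3 values alone (day 28 mean 4.72), which favours lower values at day 28. Cpne7 had a log2 difference of -0.61 (limma adjusted p = 0.159).

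Genes of the neurons that receive dopamine had values in the other direction. Of 15 receptor and signalling genes, 13 were tested, 1 rose (Rgs9, log2 difference 1.04, limma adjusted p = 0.0411) and 0 fell, against 0.0681% of all tested genes called higher. Their median log2 difference was 0.61, and 10 of the 13 had groups that did not overlap with higher values at day 28, against 9.71% of all tested genes. Drd1, the D1 receptor, had 366, 336 and 632 normalized counts at day 3 and 996, 697 and 769 at day 28 (limma adjusted p = 0.157). Drd2, the D2 receptor, which dopamine neurons also carry as an autoreceptor, had 430, 553 and 819 at day 3 and 1034, 777 and 810 at day 28 (limma adjusted p = 0.302), and its groups overlapped.

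**Figure D3:**
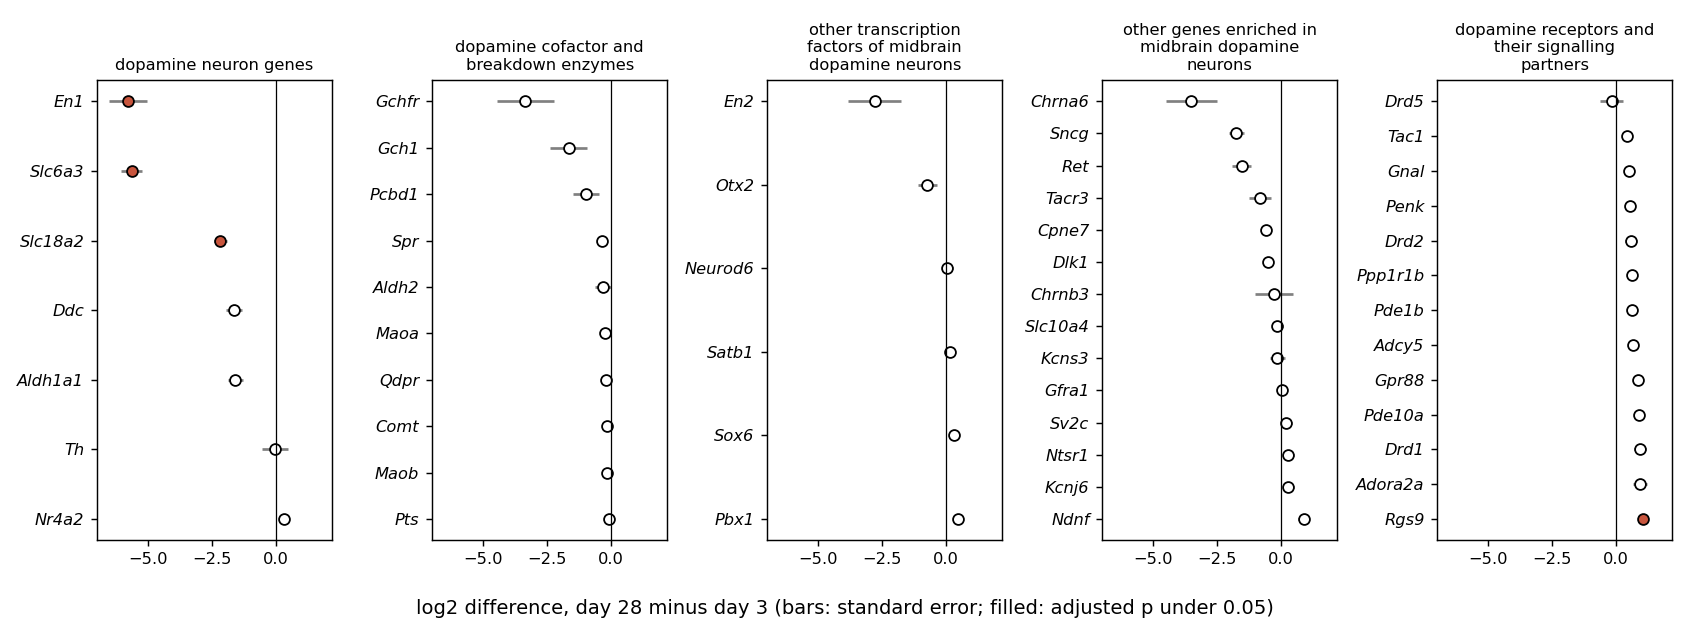
Log2 difference between day 28 and day 3 with its standard error for the tested genes of the dopamine neuron list and of 4 further lists, filled where the adjusted p was under 0.05. En1, Slc6a3 and Slc18a2 lie on the left of their panel and Th and Nr4a2 near 0, while 12 of 13 receptor and signalling genes lie above 0.

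Most markers of serotonin and noradrenaline neurons were also at lower levels at day 28. In bulk tissue, fewer cells of a type and less RNA per cell cannot be told apart. The 5 serotonin neuron genes had summed levels of 176 to 266 normalized counts at day 3 and 50.9 to 64.3 at day 28. Gata2 (means 112 and 45.8) and Gata3 (54.6 and 2.73) made up most of these sums. Fev, too low to test, was not lower, with 6 reads at day 3 and 7 at day 28. Of 4 tested, 0 passed (4 at an unadjusted p under 0.05). Each of the 4 had groups that did not overlap with lower values at day 28, against 9.21% of all tested genes. Tph2, Slc6a4 and Gata3 averaged 5.91, 0.298 and 2.73 at day 28 and passed the filter only through day 3. Lower values at day 28 were therefore favoured for these genes, and the count is a description. Slc6a4, the serotonin transporter, had 46.7, 13.4 and 18.3 at day 3 and 0, 0.893 and 0 at day 28 (limma adjusted p = 0.125). Tph2, the enzyme of serotonin synthesis in neurons, had 33.0, 22.6 and 18.3 at day 3 and 2.99, 7.14 and 7.58 at day 28. Lmx1b and Slc6a4 were both highest in day 3 replicate 1.

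The genes of noradrenaline and adrenaline neurons had summed levels of 15.8 to 83.3 at day 3 and 2.00 to 11.4 at day 28, with Slc6a2 at 0 reads in every day 28 library. Dbh, the enzyme that turns dopamine into noradrenaline and the only gene of the list tested, had 31.1, 29.8 and 7.30 at day 3 and 0, 0 and 7.58 at day 28 (limma adjusted p = 0.256), so its groups overlapped. Dbh passed the filter through its day 3 values alone (day 28 mean 2.53). Hdc, the enzyme of histamine neurons, which share Slc18a2, had 52.2, 69.9 and 35.3 at day 3 and 25.0, 39.3 and 39.8 at day 28, overlapping between the times. At day 28 the levels of Slc18a2 (26.8 to 35.9) and of Hdc (25.0 to 39.8) spanned like ranges but took different library orders. Slc18a2 was highest in day 28 replicate 1, where Hdc was lowest. Slc6a3, Slc6a4 and Slc6a2 were at most 3.99 at day 28. The part of histamine neurons in the remaining Slc18a2 was not tested.

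Th at day 28 stood beside olfactory bulb genes. Doc2g, a gene of bulb output neurons, had 6.41, 13.4 and 20.7 normalized counts at day 3 and 210, 82.1 and 40.8 at day 28 (limma adjusted p = 0.126). Cdhr1, another gene of those neurons, had 59.5, 20.6 and 124 at day 3 and 1110, 542 and 241 at day 28 (limma adjusted p = 0.102). Sp8, a factor of bulb interneurons, had 7.33, 26.7 and 43.8 at day 3 and 324, 162 and 80.6 at day 28 (limma adjusted p = 0.126). Eomes, a factor of bulb output neurons, had 223, 148 and 56.0 at day 3 and 487, 187 and 75.8 at day 28 (limma adjusted p = 0.734), so its groups overlapped, unlike those of the other 3. All 4 took the order of Th at day 28, highest in replicate 1 and lowest in replicate 3.

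Per read of Doc2g there were 1.99, 1.72 and 1.95 reads of Th in day 28 replicates 1 to 3, against 25.1, 12.3 and 9.18 in those of day 3. The ratio of Th to Doc2g was thus nearly level over the day 28 libraries, in which Th itself spanned 79.6 to 417. Per read of Cdhr1 there were 0.376, 0.260 and 0.331 reads of Th at day 28 and 1.53 to 8 at day 3, and per read of Sp8 there were 1.29, 0.873 and 0.988 against 4.33 to 22. Per read of Eomes there were 0.857, 0.756 and 1.05 reads of Th at day 28 and 0.721, 1.11 and 3.39 at day 3, which overlapped. At day 3 Th instead lay close to Slc6a3, with 0.880, 0.874 and 1 reads of Th per read of Slc6a3, against 104.5, 79 and 28 at day 28. These genes were set beside Th after their values were seen, the order rests on 3 libraries, and the part of bulb tissue in the Th values was not tested. Of the 7 genes of the bulb list, 7 were tested and 0 passed (6 at an unadjusted p under 0.05), and Etv1, which other regions also make, was lower at day 28 (log2 difference -0.80, limma adjusted p = 0.153).

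**Figure D4:**
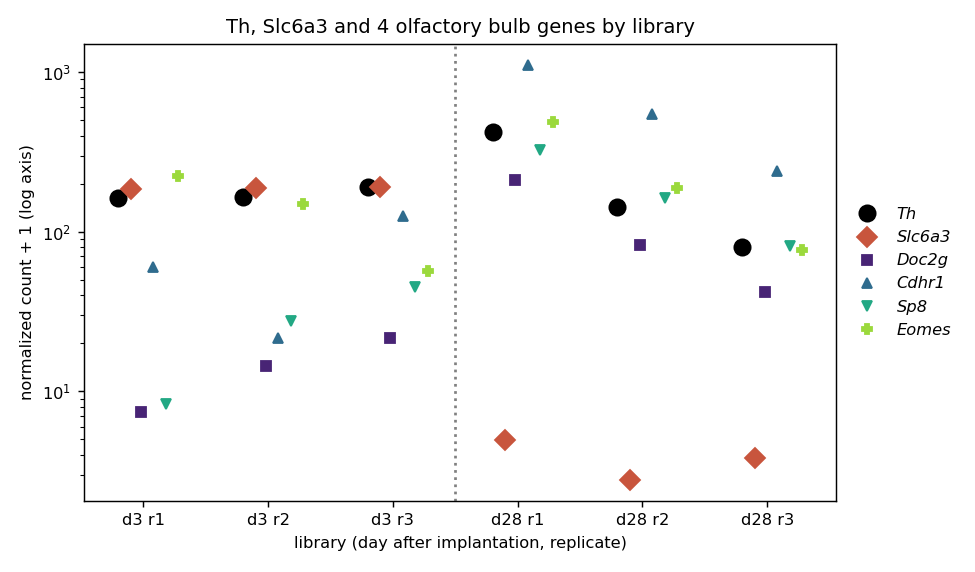
Normalized count + 1 on a log axis for Th, Slc6a3 and the olfactory bulb genes Doc2g, Cdhr1, Sp8 and Eomes in each library. Th lies with Slc6a3 in the 3 day 3 libraries and takes the order of the bulb genes in the 3 day 28 libraries, where Slc6a3 is at most 3.99 normalized counts.

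Ddc had a different order at day 28, with replicate 2 highest and replicate 1 lowest. The summed level of 7 hypothalamic neuropeptide genes took the same order, with 66.9, 1092 and 631 normalized counts in day 28 replicates 1 to 3. Of the single genes, Oxt (22.0, 335 and 22.7) and Avp (25.0, 446 and 93.8) took that order. Hcrt, Pmch and Pomc were instead highest in replicate 3, and Agrp and Ghrh had few or no reads. At day 3 the sum was 395, 464 and 713, highest in replicate 3, where Ddc was lowest. That peak came from Pomc, which had 15.6, 9.25 and 312 normalized counts at day 3. Oxt, Hcrt and Pmch were instead highest in day 3 replicate 2, where Ddc was also highest, and Avp was highest in replicate 1. Their part in the Ddc values was not tested.

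Markers of other brain regions differed between the groups and within them. The 10 other midbrain and hindbrain transcription factors had summed levels of 359 to 730 at day 3 and 85.9 to 171 at day 28. The 6 genes of hindbrain and spinal cord summed to 125 to 1385 at day 3 and 11.0 to 30.3 at day 28, and 0 of 5 tested passed (3 at an unadjusted p under 0.05). Of 7 midbrain and hindbrain factors tested, Irx3 alone was called lower (log2 difference -3.61, limma adjusted p = 0.0345), against 0.124% of all tested genes. All 7 had a lower mean at day 28, with a median log2 difference of -1.85, and 5 had an unadjusted p under 0.05. Groups did not overlap for 6 of the 7, against 9.21% of all tested genes. Irx3 and Irx5 passed the filter through their day 3 values alone (day 28 means 4.73 and 8.77), so the count is a description. The 7 cerebellar genes summed to 17050 and 16879 in day 3 replicates 1 and 2 but to 626 in replicate 3, and to 384, 516 and 2391 at day 28, with Gabra6 at 0 reads in 3 libraries and 0 of 7 genes past the threshold (3 at an unadjusted p under 0.05). Day 3 replicate 3 was therefore as low in cerebellar genes as the day 28 libraries and as high in Slc6a3 as the other day 3 libraries. With that library alone standing for day 3, the log2 difference of Slc6a3 was -5.66, of Slc18a2 -1.92, of En1 -5.98 and of Aldh1a1 -0.91; 0 genes passed in that comparison, in which the lone library is assumed to vary like the others. The part of the regions taken in these differences was not tested.

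**Figure D5:**
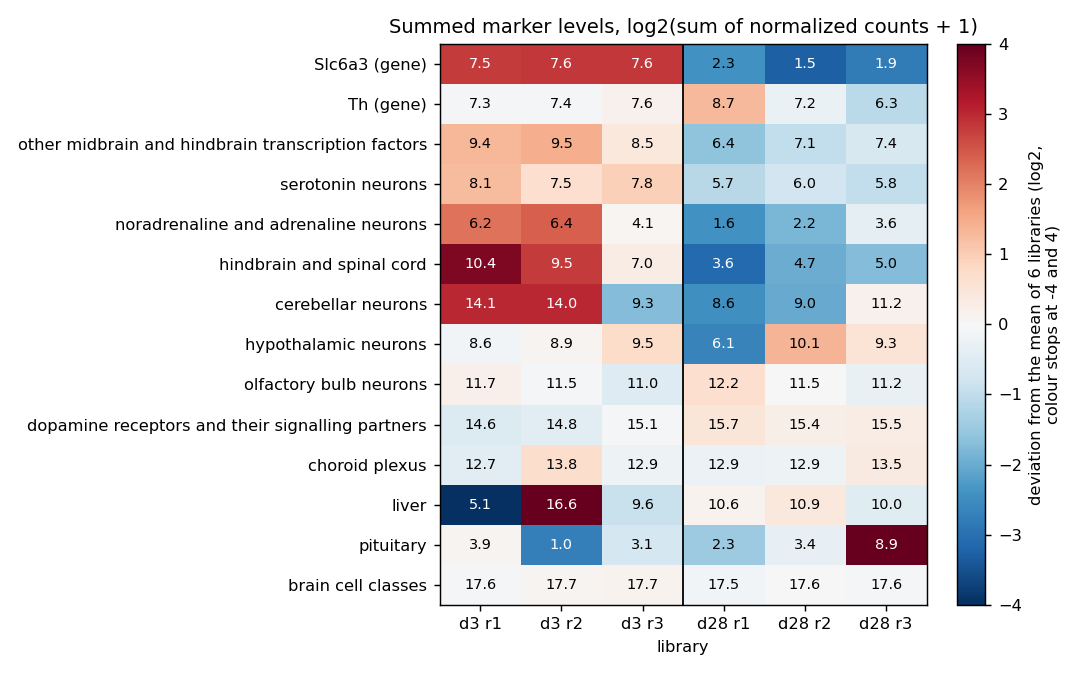
Summed level of each marker list in every library as log2(sum of normalized counts + 1), printed in the cell, with Slc6a3 and Th as single genes on top; colour gives the deviation from the mean of the 6 libraries. Slc6a3 is even within each group, whereas cerebellar genes split the day 3 libraries, liver genes peak in day 3 replicate 2 and pituitary genes in day 28 replicate 3.

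All 6 libraries held the defining genes of the main brain cell classes, with none of the 12 markers at 0; of these Aldoc, a glycolytic enzyme of astrocytes, fell by 0.68 on the log2 scale (limma adjusted p = 0.0345). Snap25, a synaptic protein of neurons, had 34277 to 36555 normalized counts over the 6 libraries. Depth was 11958137 to 16059196 reads per library. Besides the liver genes of day 3 replicate 2, pituitary genes stood out in day 28 replicate 3, with 469 summed normalized counts against 1.03 to 13.7 elsewhere; genes of the pineal gland, which also makes Ddc, summed to at most 18.0.

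Outside the members, the genes most like Slc6a3 over the 6 libraries were Plin4 (Pearson r = 0.985), Irx3 (0.984), Dcn (0.981), Jaml (0.978) and Hif3a (0.967). They came from 1932 tested non-member genes whose log2 values spanned at least 2. These 5 were the only ones of the 1932 above 0.95. Among the members, En1 (0.994) and Slc18a2 (0.992) lay higher still. The libraries of a group share their time and tissue, so r mainly reflects the step between the groups. Irx3 had 69.6, 98.7 and 47.5 normalized counts at day 3 and 4.99, 4.46 and 4.74 at day 28. None of the 1932 genes was above 0.95 for Th, for which the highest were Tubb6 (0.948), Smtnl2 (0.917), Alx4 (0.910), Gm35755 (0.906) and Gm10575 (0.902). Alx4 had 62.9 normalized counts in day 28 replicate 1 and 1.90 to 11.9 in the other libraries, and like Th it was highest in that library.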

How the data were processed

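Polyadenylated RNA from brain was sequenced as stranded libraries, 3 per time. The deposited values are log2 of normalized counts plus 1, made by the authors; the submitters' processing notes name build GRCm39, and the aligner, counter, annotation and scaling tool are not given in the sources used here. When the log2 was undone, the values were whole multiples of 1 step for 100% of nonzero values, within 0.001 reads, hence reads and size factors of 0.822 to 1.12. Gene symbols came from GENCODE M21 names (52073 identifiers matched), as did the exon lengths.

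Since the unit is log2, limma 3.58.1 in R 4.3.3 with an intensity trend was fitted over all genes whose normalized counts averaged 10 or more, with group as the only term, two-sided, Benjamini-Hochberg adjusted at 0.05. The added 1 shrinks the differences of genes with few reads. A gene could pass the filter through the values of a single group, which favours a difference between the groups. No source says that libraries of a group came from separate mice, so the spread behind each p-value may be that of technical repeats. Libraries of a group differed beyond sampling noise (chi-square per degree of freedom at least 8.39). The procedure was tested on simulated data.

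The members and all gene lists were chosen with earlier results of these data known. Named genes were the members, up to 3 genes of smallest p per list and any list gene past the threshold. The 5 non-member genes most correlated with Slc6a3 and the 5 most correlated with Th were also named. Tph2, Drd1, Drd2, Chrna6, Foxa2, Lmx1a, Sp8, Eomes, Etv1, Alb, Snap25, Slc6a2 and Gabra6 were named after their values were seen. Figures used matplotlib 3.10.9.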

Additional observations from a re-analysis of the deposited data

How the results depend on the processing

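Over all tested genes, 31 were called. The count was 31 to 34 with the other pseudocounts and with scaling by total reads, 68 without the filter on low genes, and 0 with voom on the recovered reads (2113 at an unadjusted p under 0.05). Leaving out 1 library gave 1 to 623 genes and 1 to 5 members. The count of members was 3 with all libraries, 4 without the filter and 0 with voom. After the data were seen, both day 3 libraries rich in cerebellar transcripts were left out together, which gave 0 genes and 0 members (1904 genes and 5 members at an unadjusted p under 0.05).

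With the replicate block, 0 genes and 0 members were called (2386 genes and 5 members at an unadjusted p under 0.05). Same-numbered libraries share only a number: their deviations correlated at 0.03, 0.13 and -0.06, and not every library correlated best with its own number.

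Th, with a log2 difference of -0.03, changed sign without day 3 replicate 3, day 28 replicate 2 or day 28 replicate 3, and ran from -0.69 to 0.50 over the fits without 1 library. Nr4a2 went from 0.30 to -0.037 without both cerebellum-rich libraries. Slc6a3, Slc18a2, Ddc, En1 and Aldh1a1 kept their direction under every alternative run. Pitx3, Foxa1 and Lmx1b, with at most 46 reads over a group, are limited by depth. The causes of these shifts were not tested.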
